A study of Homo sapiens with 12 samples.

Results

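The INK4 and KIP inhibitors hold back the kinases that drive cells through the division cycle, and 7 genes of this group were examined in RNA sequencing data from 3 lines of intrahepatic cholangiocarcinoma. The genes were CDKN2A, CDKN2B, CDKN2C and CDKN2D, which make up the INK4 family, CDKN1B and CDKN1C of the KIP family, and CDKN3, a phosphatase grouped with them by name. They were taken by symbol from the deposited expression table, where they fill 7 of 18798 gene rows. All 7 reached a signal of 1 in 2 or more libraries and were among the 16146 genes tested. CDKN2A, CDKN2B and CDKN1C did so through HuH-28 and SSP-25, not through RBE, where they were near 0.

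INK4 proteins bind CDK4 and CDK6 and keep the D-type cyclins from activating them, so that RB stays bound to E2F factors and entry into S phase is held back. KIP proteins bind cyclin-kinase complexes, above all those of CDK2. CDKN3, also known as KAP, removes the activating phosphate from CDK2 and is itself made mostly late in the cell cycle. CDKN2A is among the genes most often lost in human cancer, in bile duct cancer as elsewhere.

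HuH-28, RBE and SSP-25 are established human lines of intrahepatic cholangiocarcinoma, a cancer of the bile ducts within the liver. Cells of each line were transfected with a scrambled control siRNA or with an siRNA against LKB1, the kinase encoded by STK11, and RNA was taken 48 h later. Each of the 6 groups held 2 libraries, for 12 in all. By the study's in situ hybridization RBE is trisomic for LKB1, while the other lines are diploid for it. HuH-28 was grown in MEM and the other lines in RPMI1640, so medium and line cannot be told apart, and the siRNA sequences are not given in the sources used here. Libraries of a group are named a first and a second test by the study, with no word on separate cultures, so p-values measure the spread between these libraries, which may be technical.

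Values are the authors' normalized reads per kilobase, called signal below, which are divided by transcript length and so allow levels to be compared between genes. Library totals of this signal ranged from 9910000 to 11730000, and the depth in reads is unknown. STK11 fell without overlap of the siRNAs, with log2 fold changes of -2.77 in SSP-25, -1.68 in RBE and -1.59 in HuH-28. Of 7 biliary markers, 5 were detected in both control libraries of HuH-28, 7 in those of RBE and 6 in those of SSP-25. Summed over 3 fibroblast markers, the signal was 15467 to 20626 in the HuH-28 libraries, 6564 to 11447 in those of SSP-25 and 52.5 to 74.96 in those of RBE, and 4 hepatocyte markers summed to 1122 to 1569 in RBE, at most 193 in HuH-28 and at most 3.54 in SSP-25. Single genes carried these sums. COL1A1 gave 6538 to 11339 in SSP-25, where DCN was at most 0.357, while in HuH-28 DCN was at 1933 to 2719. SERPINA1 gave 1113 to 1553 in RBE, where TTR was at most 18.7, ALB at most 0.917 and APOA2 listed at 0. Neither leukocyte nor endothelial markers summed to more than 13.05 in any library. The part of these differences in the results below was not tested.

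CDKN2A encodes p16INK4a and, from another first exon, ARF, which acts on p53 through MDM2. A row of the table is a gene, so its transcripts cannot be told apart. CDKN2A lies on the reverse strand of chromosome 9 from 21967753 to 21995301 (GENCODE v29, GRCh38), and CDKN2B, which encodes p15INK4b, lies next to it from 22002903 to 22009363 on the same strand. Of the 3240 stretches of 40 bases, the read length, in the coding transcripts of CDKN2A, 10.8% also occur in transcripts of another gene, 305 of them in CDKN2B-AS1 on the opposite strand and 46 in CDKN2B. The library kit does not mark strand. Only 1.14% of the 4030 stretches of CDKN2B are shared, all with CDKN2A, and none of those of the other 5 genes.

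CDKN2A was high in HuH-28, intermediate in SSP-25 and near 0 in RBE. With control siRNA its signal was 1528 and 1565 in the 2 HuH-28 libraries, 321 and 336 for SSP-25, and 0.917 and 1.53 in those of RBE. The lines did not overlap. CDKN2A was 2.23 higher on the log2 scale in HuH-28 than in SSP-25 (SE 0.27, limma adjusted p = 2.8e-05), which is 4.70-fold. The difference of HuH-28 from RBE was 9.83 with 0.5 added to each signal, 7.12 with 10 added and 10.2 with 0.1 added, so its size is set by the added number, while its adjusted p was at most 2.5e-07 in all of these.

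CDKN2B followed the same order. Its signal with control siRNA was 428 and 449 in HuH-28, 158 and 160 in SSP-25, but only 0 and 0.798 in RBE. It was the 1 member with every RBE library, of either siRNA, under a signal of 1. The log2 difference of HuH-28 from SSP-25 was 1.46 (SE 0.35, limma adjusted p = 0.0037). It was 1.46 with 0.1 added to the signal (adjusted p = 0.15) and 1.41 with 10 added (2.5e-08). The estimate of the spread is shared by all groups and takes in the RBE libraries near 0.

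CDKN1C encodes p57KIP2, an imprinted gene expressed from the maternal copy, and lies on chromosome 11 from 2883213 to 2885773 on the reverse strand. Its control signal was 121 and 102 in HuH-28, 27.9 and 20.8 in SSP-25, but only 0.490 and 1.10 in RBE. Here too HuH-28 was highest and RBE lowest, without overlap. The log2 difference of HuH-28 from SSP-25 was 2.19 (SE 0.27, limma adjusted p = 3.6e-05).

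CDKN1B, CDKN2C and CDKN2D had signal in every library of every line. CDKN1B, which encodes p27KIP1 on chromosome 12 (12715058 to 12722371), had a control signal of 760 and 811 in SSP-25, 755 and 752 in RBE, and 1277 and 1456 in HuH-28. It was 0.86 higher on the log2 scale in HuH-28 than in RBE and 0.80 higher than in SSP-25 (SE 0.10, limma adjusted p = 1.9e-05 and 3.7e-05). The difference of RBE from SSP-25 was -0.06, with a 95% interval of -0.28 to 0.16.

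CDKN2C, which encodes p18INK4c on chromosome 1 (50960745 to 50974633), had a control signal of 449 and 438 in SSP-25, 453 and 422 in RBE, and 598 and 579 in HuH-28. HuH-28 stood above the other lines by 0.43 and 0.41 on the log2 scale (SE 0.05, limma adjusted p = 3.8e-05 and 6.2e-05), and RBE differed from SSP-25 by -0.02 (95% interval -0.14 to 0.10).

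CDKN2D, which encodes p19INK4d on chromosome 19 (10566462 to 10569059), was the most even of the INK4 genes across the lines, with a control signal of 121 and 130 in SSP-25, 153 and 141 in RBE, and 100 and 130 in HuH-28. The libraries of HuH-28 and SSP-25 overlapped, and the log2 differences between lines were -0.37 for HuH-28 against RBE (limma adjusted p = 0.049), -0.14 for HuH-28 against SSP-25 (adjusted p = 0.42) and 0.22 for RBE against SSP-25 (adjusted p = 0.21). The first was lost without HuH-28 control replicate 1 (adjusted p = 0.34), without either RBE control library (0.19 and 0.078), and without any of 4 libraries outside that comparison, both RBE LKB1 siRNA and both SSP-25 control libraries (0.063 to 0.064). It was also lost with 0.1 added to the signal (0.053), with no filter (0.094), with no trend (0.074), with the replicate block (0.059) and over the mean of both siRNAs (0.072). STK11 lies on chromosome 19 too, and the part of its trisomy in RBE was not tested.

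CDKN3 had another order. It lies on chromosome 14 from 54396849 to 54420218, and its control signal was 1019 and 1125 in SSP-25, 423 and 471 in HuH-28, and 268 and 262 in RBE. SSP-25 was above HuH-28 by 1.26 on the log2 scale and above RBE by 2.01, and HuH-28 was above RBE by 0.75 (SE 0.07 each, limma adjusted p of 3.2e-06 or less).

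**Figure D1:**
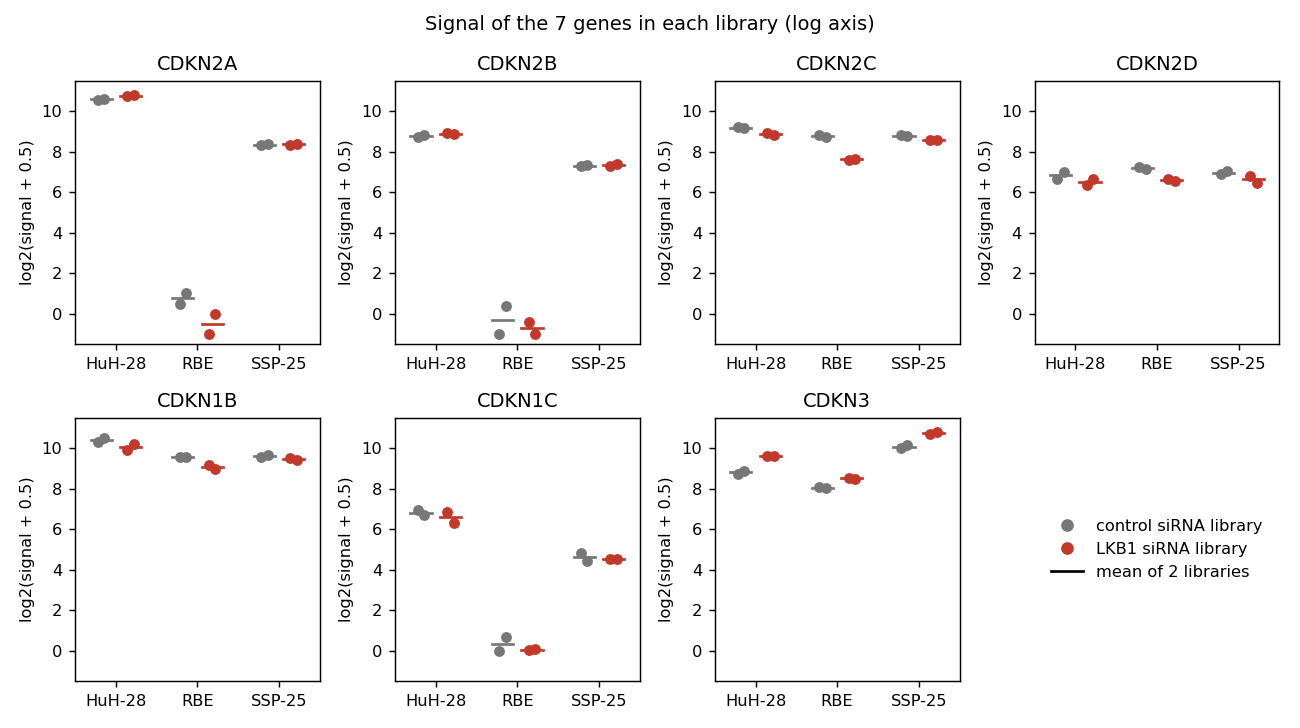
Signal + 0.5 on a log2 axis for each gene, with the lines along the x axis. Each library is a point, with control siRNA in gray and LKB1 siRNA in red, and each bar is a mean of 2 libraries. CDKN2A, CDKN2B and CDKN1C drop to near 0 in RBE with either siRNA, CDKN1B, CDKN2C and CDKN2D stay within a narrow range over the lines, and CDKN3 is highest in SSP-25.

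Between control libraries a member counted as called where the adjusted p was under 0.05 and the log2 difference was above 1 or below -1. In HuH-28 against RBE, 3 members were called higher and 0 lower, where 22.2% and 19.7% of all tested genes were called. In HuH-28 against SSP-25, 3 were higher and 1 lower (20.6% and 17.4% of all genes), and in RBE against SSP-25, 0 were higher and 4 lower (18.9% and 18.5%). CDKN2A, CDKN2B and CDKN1C were called in all 3 of these comparisons and CDKN3 in both with SSP-25. The comparisons share control libraries.

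The most abundant member therefore differed by line. It was CDKN2A in HuH-28, CDKN1B in RBE and CDKN3 in SSP-25. Summed over the 4 INK4 genes, the signal was 2655 and 2723 in the HuH-28 control libraries, 1050 and 1065 in those of SSP-25, and 607 and 565 in those of RBE. CDKN2A made up 57.5% of this sum in HuH-28 and 31.1% in SSP-25. In RBE it made up 0.208%, while CDKN2C gave 74.6% and CDKN2D 25.1%. In SSP-25 the share of CDKN2C was 42.0%.

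**Figure D2:**
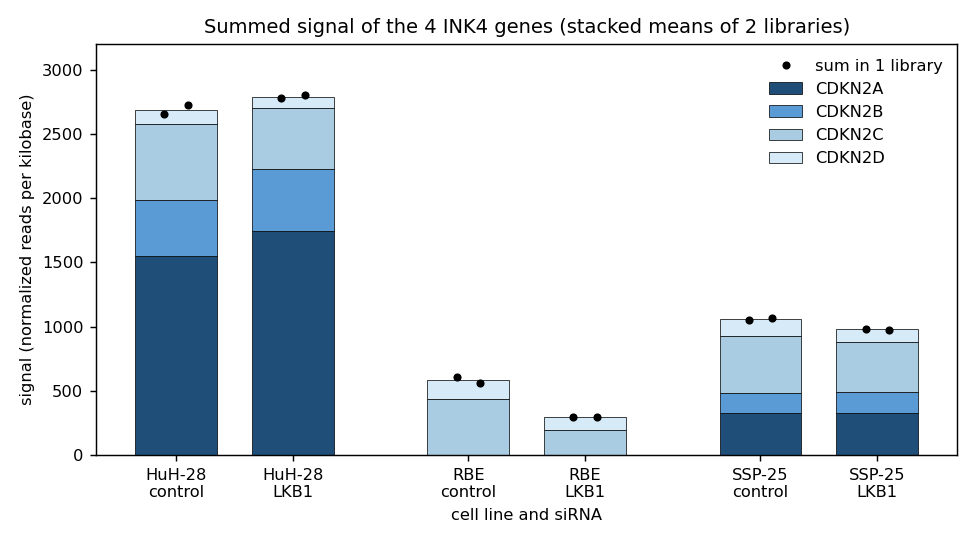
Summed signal of the 4 INK4 genes on a linear axis from 0, by line and siRNA. Bars stack the means of 2 libraries and points are the sums in single libraries. The RBE bars hold only CDKN2C and CDKN2D to the eye, and fall from 607 and 565 with control siRNA to 295 and 294 with LKB1 siRNA.

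A low signal in 1 line alone is uncommon among genes that are present in the others. Of 10274 genes that reached a signal of 20 in every HuH-28 and SSP-25 library, 101 (0.983%) were under 2 in every RBE library, and 3 of the 7 members were among them. Genes near 0 in HuH-28 alone by the same limits made up 0.749% and in SSP-25 alone 0.255%, with 0 of the 4 members present in both other lines. These limits were chosen after the values were seen, and members lie close to them. CDKN1C was at 20.8 in an SSP-25 library and CDKN2A at 1.53 in an RBE library. CDKN2A and CDKN2B are also neighbours on the chromosome. Nothing is read from the count of members.

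The genes beside CDKN2A and CDKN2B showed where along chromosome 9 the RBE signal was lacking. In the order of RefSeq (GRCh38.p14), 27 protein-coding genes run from MLLT3 to TUSC1, and 26 have a row. Of these, 10 had a signal of at least 1 in every HuH-28 and SSP-25 library, and 6 of the 10 were under 2 in every RBE library. The 6 were neighbours without a break, IFNE, MTAP, CDKN2A, CDKN2B, DMRTA1 and ELAVL2. MTAP, which encodes an enzyme of methionine salvage, had a signal of at most 0.202 in RBE, against 173 to 223 in HuH-28 and 154 to 167 in SSP-25. DMRTA1 was at 24.0 to 30.8 in HuH-28, 54.7 to 80.4 in SSP-25 and at most 0.00858 in RBE.

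Genes on either side of this run had signal in RBE, though TUSC1 was lower there than in every library of the other lines. KLHL9, an adaptor of a ubiquitin ligase, was at 132 to 200 in RBE, 172 to 269 in HuH-28 and 227 to 335 in SSP-25. Farther out on that side, FOCAD was at 206 to 252 and MLLT3 at 255 to 314 in RBE. TUSC1, named after its values were seen, was at 49.7 to 57.5 in RBE, 174 to 188 in HuH-28 and 154 to 244 in SSP-25. Interferon alpha genes lie between KLHL9 and IFNE, and most are listed at or near 0 in all lines, so the data do not place the edge more closely on that side. DNA copy number and methylation were not analysed here, and a lost gene cannot be told from a silent one in these values.

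**Figure D3:**
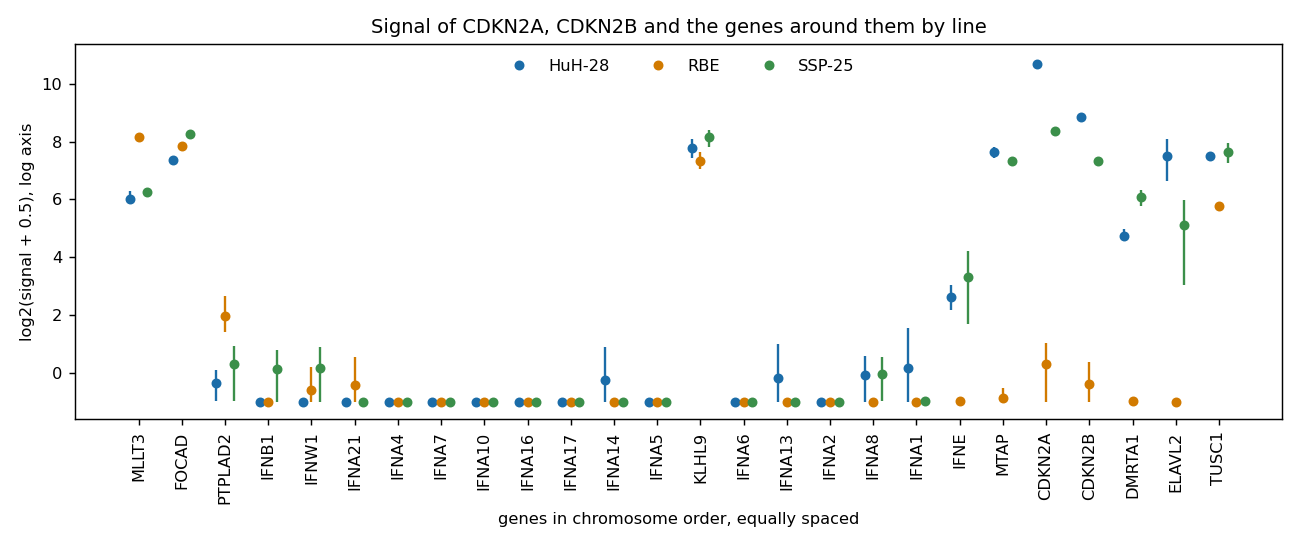
Signal + 0.5 on a log2 axis for CDKN2A, CDKN2B and the genes around them, in chromosome order with equal spacing. Points are means of the 4 libraries of a line and vertical lines run from the lowest to the highest library. From IFNE to ELAVL2 the RBE points lie near the floor of the axis while HuH-28 and SSP-25 have signal, and KLHL9 and TUSC1 have signal in all 3 lines.

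CDKN1C stood otherwise among its neighbours. SLC22A18, a membrane transporter gene, had a control signal of 216 and 238 in RBE, PHLDA2, an imprinted gene of placental growth, had 1355 and 1310, and NAP1L4, a histone chaperone gene, had 2233 and 2115. All were above their control signal in HuH-28. On the other side KCNQ1, a potassium channel gene, was at most 3.39 in every line. In RBE, CDKN1C was thus near 0 beside genes that had signal there.

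With LKB1 siRNA, CDKN3 rose in all 3 lines, CDKN2C fell in all 3, and CDKN1B and CDKN2D fell on average. A member passed at an adjusted p under 0.05. In HuH-28, 1 of the 7 passed as higher and 2 as lower, against 14.3% and 15.5% of all genes. In RBE 1 was higher and 4 lower (22.1% and 18.6% of all genes), and in SSP-25 1 was higher and 1 lower (21.1% in each direction). Among the 4 in RBE was CDKN2A, with a signal of at most 1.53 there. Its call rests on values near 0 and is not read as a fall. Averaged over the lines, 1 was higher and 3 lower (27.3% and 25.2% of all genes). The median log2 fold change of the 7 was -0.11 in SSP-25, -0.47 in RBE and -0.22 in HuH-28, where the medians of all genes were 0.018, 0.013 and 0.0076. For 4 members both LKB1 siRNA libraries lay on one side of both control libraries in each line, with 1 higher and 3 lower in all 3 lines, and 13.6% and 13.9% of all genes were so placed. With an absolute log2 fold change above 1 as well, only CDKN2C and CDKN2A passed, both in RBE, where CDKN2A was near 0.

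CDKN3 was the member that rose. In SSP-25 its signal went from 1019 and 1125 with control siRNA to 1651 and 1804 with LKB1 siRNA, in RBE from 268 and 262 to 368 and 357, and in HuH-28 from 423 and 471 to 788 and 778. In every line both LKB1 siRNA libraries lay above both control libraries. The log2 fold change was 0.69 in SSP-25 (SE 0.07, limma adjusted p = 3.9e-05), 0.45 in RBE (5.8e-04) and 0.81 in HuH-28 (3.2e-05). Averaged over the lines it was 0.65 (SE 0.04, limma adjusted p = 6.2e-07), or 1.57-fold. The difference of the effect between lines had an adjusted p of 0.0504 in limma's F test. That p was 0.026 without HuH-28 control replicate 2 and 0.048 without SSP-25 control replicate 2, and from 0.057 to 0.15 without any other single library. Under other settings of the fit it ran from 0.039 to 0.10.

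CDKN2C had the largest fall on average over the lines (log2 fold change -0.55), though not within each line. CDKN2A was at -1.26 in RBE, CDKN1B at -0.35 in HuH-28 and CDKN2D at -0.34 in SSP-25, the last without passing. Its signal went from 598 and 579 to 487 and 460 in HuH-28, from 449 and 438 to 387 and 381 in SSP-25, and from 453 and 422 to 195 and 200 in RBE, with no overlap of the siRNAs in any line. The log2 fold change was -1.14 in RBE (SE 0.05, limma adjusted p = 3.7e-07), -0.31 in HuH-28 (0.0020) and -0.21 in SSP-25 (0.012). The effect differed between lines (adjusted p = 1.2e-04, limma's F test), and the signal fell by 54.7% in RBE, while it fell by 19.5% in HuH-28 and fell by 13.4% in SSP-25. In SSP-25 the call was lost without control replicate 1 (adjusted p = 0.070) or LKB1 siRNA replicate 2 (0.066). In the F test 28.2% of all genes passed, and 2 of the 7 members did, CDKN2C and CDKN2A, the latter near 0 in RBE.

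CDKN1B went from 755 and 752 to 583 and 507 in RBE, from 1277 and 1456 to 975 and 1177 in HuH-28, and from 760 and 811 to 718 and 685 in SSP-25. Here too there was no overlap in any line, though in HuH-28 the libraries of each siRNA lay well apart. The log2 fold change was -0.47 in RBE (SE 0.10, limma adjusted p = 0.0039), -0.35 in HuH-28 (0.025) and -0.16 in SSP-25 (0.22), with -0.33 on average (SE 0.06, adjusted p = 8.3e-04). In HuH-28 the call was lost without control replicate 2 (adjusted p = 0.14) or LKB1 siRNA replicate 1 (0.15), and also with no filter (0.063), with no trend (0.059) and with the line fitted alone (0.11). The effect was not shown to differ between lines (adjusted p = 0.25, limma's F test).

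CDKN2D went from 153 and 141 to 99.1 and 93.4 in RBE, from 100 and 130 to 81.6 and 100.02 in HuH-28, and from 121 and 130 to 112 and 88.3 in SSP-25. In HuH-28 the highest LKB1 siRNA library lay just under the lowest control library, at 100.02 against 100.4. The log2 fold change was -0.61 in RBE (SE 0.15, limma adjusted p = 0.0095), -0.33 in HuH-28 (0.13) and -0.34 in SSP-25 (0.10), with -0.43 on average (SE 0.09, adjusted p = 0.0023). The call in RBE was lost without control replicate 1 (adjusted p = 0.063) or LKB1 siRNA replicate 2 (0.059), and HuH-28 passed without its control replicate 1 (0.049). Without the RBE line the average was -0.34 (adjusted p = 0.052).

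A two-sided exact permutation of siRNA labels within lines gave p = 0.32 for CDKN2A, 0.97 for CDKN2B and 0.24 for CDKN1C. For CDKN3, CDKN2C, CDKN1B and CDKN2D the lack of overlap in every line by itself fixes the p at 0.0093, the smallest that 216 arrangements allow, as it does for all genes so placed, and nothing is read from it. Within 1 line, 2 libraries against 2 allow no p under 0.33.

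CDKN2A, CDKN2B and CDKN1C did not pass in the lines where they had signal. All groups share 1 estimate of the spread, which for these genes takes in the RBE libraries near 0. CDKN2A went from 1528 and 1565 to 1730 and 1765 in HuH-28 and from 321 and 336 to 325 and 340 in SSP-25. The HuH-28 libraries did not overlap, those of SSP-25 did, and the log2 fold changes were 0.18 (95% interval -0.42 to 0.78, limma adjusted p = 0.68) and 0.01 (-0.59 to 0.61, adjusted p = 0.99). In a fit without the RBE libraries, chosen after the data were seen, the adjusted p in HuH-28 was 0.0504. In RBE CDKN2A went from 0.917 and 1.53 to 0 and 0.507, a log2 fold change of -1.26 that passed (adjusted p = 0.0041) but was -0.13 (adjusted p = 0.12) with 10 added to the signal. Both siRNAs left it near 0 in that line.

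CDKN2B went from 428 and 449 to 483 and 475 in HuH-28 and from 158 and 160 to 158 and 169 in SSP-25, with log2 fold changes of 0.13 (95% interval -0.67 to 0.92) and 0.04 (-0.76 to 0.83). In RBE it was 0 and 0.798 with control siRNA and 0.249 and 0.00383 with LKB1 siRNA. Its RBE fold change of -0.39 (limma adjusted p = 0.43) became -1.08 without RBE control replicate 1 (adjusted p = 0.0045) and 0.30 without RBE control replicate 2, so near 0 a single library set it.

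CDKN1C went from 121 and 102 to 115 and 78.9 in HuH-28, from 27.9 and 20.8 to 22.1 and 22.5 in SSP-25, and from 0.490 and 1.10 to 0.514 and 0.546 in RBE. The siRNAs overlapped in every line. The log2 fold changes were -0.22 (95% interval -0.83 to 0.39), -0.11 (-0.72 to 0.50) and -0.29 (-0.90 to 0.32), none of which passed (limma adjusted p of 0.45 or more).

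**Figure D4:**
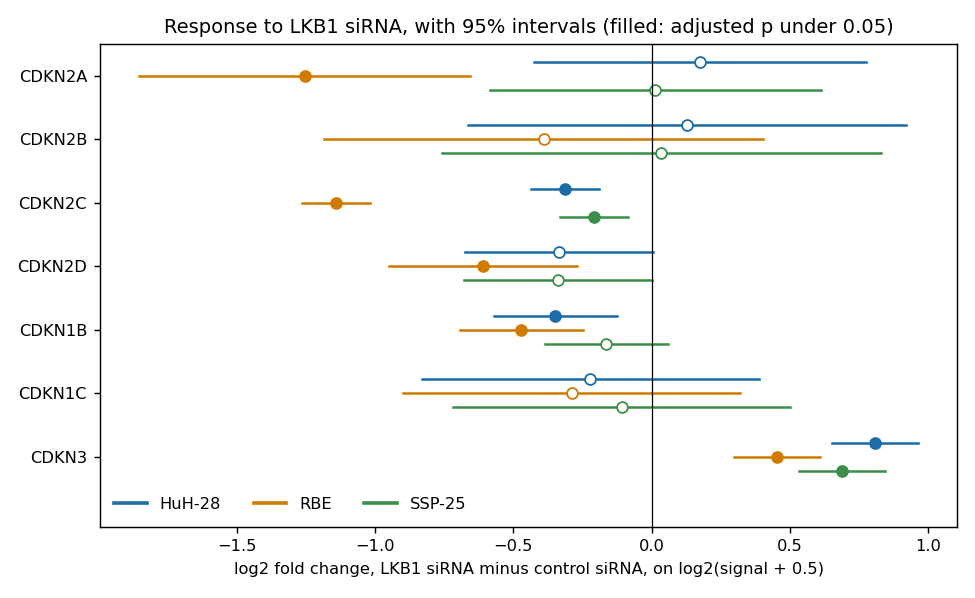
Log2 fold change of LKB1 siRNA against control siRNA, on signal + 0.5, for each gene and line, with limma's 95% intervals. Filled points passed at an adjusted p under 0.05. CDKN3 lies to the right of 0 in each line and CDKN2C to the left, farthest in RBE at -1.14. The filled CDKN2A point is RBE, where the signal was at most 1.53.

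CDKN1A encodes p21CIP1, the KIP protein that answers to p53, and is not among the 7. Its signal went from 4504 and 4328 to 7526 and 8044 in RBE (log2 fold change 0.82, limma adjusted p = 9.1e-06), from 505 and 457 to 378 and 349 in SSP-25 (-0.40, adjusted p = 8.4e-04), and from 883 and 880 to 969 and 902 in HuH-28 (0.08, adjusted p = 0.38). The lines differed in this effect (adjusted p = 1.2e-04, limma's F test). RBE, with the lowest INK4 sum, had the highest CDKN1A.

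The LKB1 siRNA libraries also differed in genes of cell division, and the members are set beside them here. By the study's own assays, proliferation of all 3 lines was higher after LKB1 siRNA, measured later than the RNA. The relation of that growth to the values below was not tested. Of 20 genes of G2 and mitosis, the phase in which CDKN3 is usually transcribed, 19 were lower on average and 1 was higher (25.2% and 27.3% of all genes), with a median log2 fold change of -0.51 where that of all genes was 0.03. The 3 with the smallest p were HMMR, which encodes a spindle-associated protein (-1.39), the mitotic kinase gene AURKA (-0.71) and DLGAP5, a spindle assembly gene (-0.74). By line the median was -0.84 in RBE, -0.41 in HuH-28 and -0.28 in SSP-25. Of 20 S-phase genes 16 were lower and 0 higher on average, with medians of -0.47 in RBE, -0.19 in HuH-28 and -0.17 in SSP-25. Among the 16 were the replicative helicase genes MCM6 (-0.46) and MCM4 (-0.34) and RRM2, a subunit of ribonucleotide reductase (-0.32). RRM2 was at 0.0013 in SSP-25.

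CDKN3 did not follow these genes. Its log2 fold change lay above those of all 20 G2 and mitosis genes and all 20 S-phase genes in each of the 3 lines. The closest was KIF11, a spindle motor gene, at 0.68 against 0.69 in SSP-25. CDKN2C lay within the range of both lists in HuH-28 and SSP-25, while in RBE its fall exceeded that of every S-phase gene and of 18 of the 20 G2 and mitosis genes. CDKN2D lay within the range of both lists in each line.

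**Figure D5:**
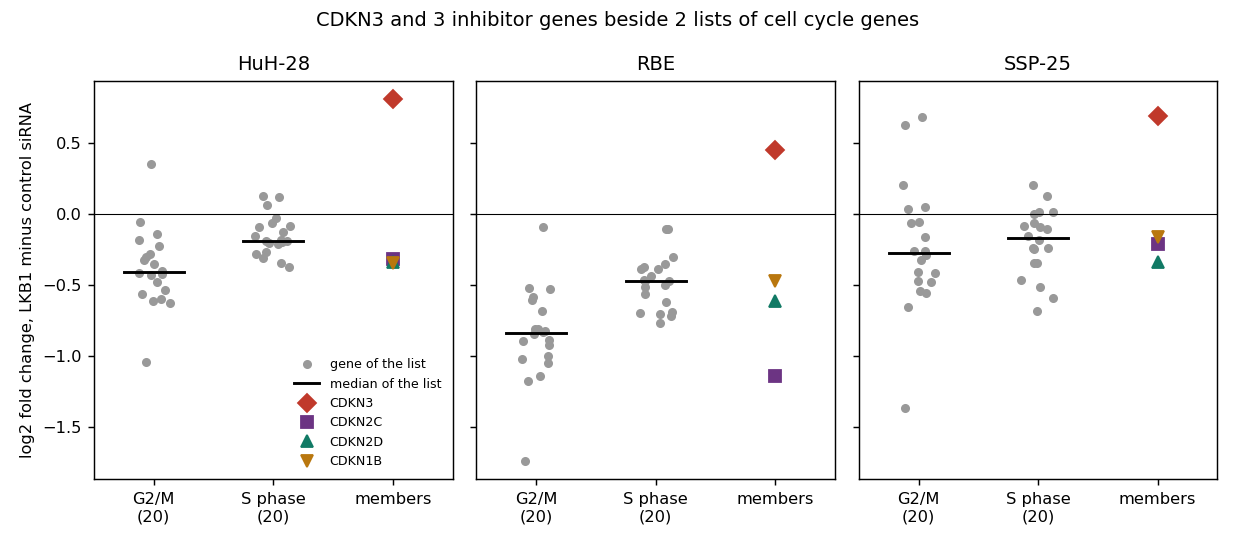
Log2 fold change of LKB1 siRNA against control siRNA for 20 G2 and mitosis genes and 20 S-phase genes (gray points, black bars for medians) and for CDKN3, CDKN2C, CDKN2D and CDKN1B, in each line. CDKN3 is the highest point in every panel, and both lists are lowest in RBE, where their medians are -0.84 and -0.47.

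Among the cyclins, kinases and RB and E2F genes on which the inhibitors act, 3 of 17 were higher and 12 lower on average, with a median log2 fold change of -0.29, where 27.3% of all genes were higher and 25.2% lower. CDK6, the kinase that INK4 proteins bind, was at -0.66, E2F1, an activating E2F, at -0.60 and E2F4, a repressive one, at -0.51. For turnover of p27 and its control by FOXO factors, 3 of 14 genes were higher and 3 lower (median 0.01), both under the shares of all genes. FOXO3, a factor that activates CDKN1B transcription, was at 1.17 and UHMK1, a kinase that acts on p27, at 0.96, while CKS2, a small kinase subunit, was at -0.61. CDKN1B itself was at -0.33. Of 20 regulators of the INK4 genes, 6 were higher and 9 lower (median -0.09). SMAD2 was at 0.92, ETS2, which activates CDKN2A, at 0.45 and SMAD3 at -0.33. By line SMAD3 was at -0.75 in SSP-25, -0.20 in HuH-28 and -0.06 in RBE. Of the 8 listed neighbours of CDKN2A and CDKN2B, 3 were higher and 1 lower, and of the 6 of CDKN1C, 3 were higher and 1 lower. These neighbours included NAP1L4 (-0.42), and ELAVL2 (1.38) and IFNE (0.76), which were near 0 in RBE. By line, IFNE was at 2.30 in SSP-25 and -0.0012 in HuH-28, and ELAVL2 at 2.75 and 1.38.

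Over the 12 libraries the levels of CDKN2A, CDKN2B and CDKN1C ran together, with Pearson r of 0.98 to 0.99 between pairs, and r was 0.01 between CDKN1B and CDKN3. The libraries share their lines, and these values mostly describe the 3 line means. After the mean of each line was taken away, the genes most like CDKN3 among 12230 were LDHA (r = 0.993), TMEM209 (0.990) and PFKFB4 (0.984). Those most like CDKN2C were TCF19 (0.995), GPSM2 (0.994) and RRM1 (0.994), those most like CDKN1B were ELMOD2 (0.991), METTL4 (0.981) and RAD51AP1 (0.977), and those most like CDKN2D were ZMYND11 (0.971), PRPF19 (0.967) and SUCLA2 (0.958). For CDKN2A, CDKN2B and CDKN1C the same ranking gave CHI3L1 (0.936), ISL1 (0.920) and C3orf24 (0.817) first. What was left of CDKN2A and CDKN2B varied mostly in RBE, where their signals were at most 1.53 and 0.798. CDKN1C was at most 1.10 there, and its siRNAs overlapped in every line. Nothing is read from the rankings of these 3 genes. For CDKN3, CDKN2C, CDKN1B and CDKN2D what was left was mostly the difference between the siRNAs. Many genes share such a difference, with 13.6% of all genes higher and 13.9% lower without overlap in all 3 lines. Regulation in common was not tested.

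RefSeq promoters (GRCh38.p14, 250 bases before to 50 after a start) were matched for 6 of the 7 genes, and that of CDKN1C was not. They were read for CCAAT, the letters that the factor NF-Y binds, on both strands. CCAAT occurs in 34.6% of 35116 promoters of this length. The promoters of the 4 genes whose siRNA libraries were apart in every line are shown because these genes moved in opposite directions, with CCAAT or its complement in capitals:
CDKN3, chr14:54396757-54397056, forward strand: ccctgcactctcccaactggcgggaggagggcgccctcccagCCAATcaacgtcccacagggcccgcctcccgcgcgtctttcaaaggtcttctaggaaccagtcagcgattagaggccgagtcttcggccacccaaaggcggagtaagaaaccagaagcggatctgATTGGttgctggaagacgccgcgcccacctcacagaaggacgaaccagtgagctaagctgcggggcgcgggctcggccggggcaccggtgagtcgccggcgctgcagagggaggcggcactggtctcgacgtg
CDKN1B, chr12:12717118-12717417, forward strand: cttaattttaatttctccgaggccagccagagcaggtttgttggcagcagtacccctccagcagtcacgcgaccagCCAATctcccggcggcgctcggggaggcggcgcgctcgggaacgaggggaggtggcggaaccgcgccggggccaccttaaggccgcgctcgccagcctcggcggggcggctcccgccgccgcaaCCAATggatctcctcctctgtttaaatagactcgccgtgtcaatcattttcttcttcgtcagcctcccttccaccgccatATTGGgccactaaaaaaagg
CDKN2D, chr19:10568930-10569229, reverse strand: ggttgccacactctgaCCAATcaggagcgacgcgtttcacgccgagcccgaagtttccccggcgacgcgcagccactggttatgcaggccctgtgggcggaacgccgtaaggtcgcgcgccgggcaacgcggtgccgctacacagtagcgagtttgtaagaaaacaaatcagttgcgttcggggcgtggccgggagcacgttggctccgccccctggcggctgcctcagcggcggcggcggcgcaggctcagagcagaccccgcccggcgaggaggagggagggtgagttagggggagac
CDKN2C, start 3 of 3, chr1:50969995-50970294, forward strand: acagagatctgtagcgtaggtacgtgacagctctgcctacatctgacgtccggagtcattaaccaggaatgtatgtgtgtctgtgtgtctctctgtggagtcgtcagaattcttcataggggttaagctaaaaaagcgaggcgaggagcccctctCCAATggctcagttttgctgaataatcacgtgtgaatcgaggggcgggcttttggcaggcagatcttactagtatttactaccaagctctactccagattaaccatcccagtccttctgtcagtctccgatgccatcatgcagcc
CDKN1B holds CCAAT 3 times, CDKN3 2 times, and CDKN2D and start 3 of CDKN2C 1 time each. The other starts of CDKN2C, both starts of CDKN2A and that of CDKN2B hold 0. TTTGAA, a core of the CHR element of mitotic genes, occurs in 15.2% of promoters and, of these members, in CDKN3 alone. There it is present as its complement, which is not in capitals above. CCAAT was thus present in CDKN3, which rose, and in CDKN1B, CDKN2D and start 3 of 3 of CDKN2C, which fell. Which start was used in these cells was not analysed here.

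The longest annotated 3′ UTRs of the 7 genes (363 to 3084 bases, GENCODE v29) were read for 3 words of 7 bases. The words were chosen with earlier results of these data known and are not from the study's paper. The word GCAGTAC occurs in 4.99% of 14924 UTRs searched and in 0 of the 7 members. The overlapping word CAGTACA occurs in 8.68% and also in 0 of the 7. For GAAGGAA the share is 20.9%, and again 0 of the 7 hold it. With only 7 genes at such shares, nothing is read from these counts.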

How the data were processed

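Expression values were taken as the authors deposited them, a signal in normalized reads per kilobase. Libraries were made with the TruSeq V2 kit. NextGENe and RefSeq mRNA appear in the study's methods, but TopHat 1.2.0, edgeR and hg19 in the submitters' processing notes, and which made these values is not given in the sources read. The signal is fractional, so whole reads and counting intervals could not be recovered. Of 18815 rows, 17 repeats were left out, and values under 1e-06 were set to 0.

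log2(signal + 0.5) was fitted with limma 3.58.1 in R 4.3.3, as 6 group means with 6 residual degrees of freedom, a trended eBayes prior, and p-values adjusted by Benjamini-Hochberg over the 16146 genes that reached a signal of 1 in 2 or more libraries. A fold change on this scale understates the change of low genes. Fits were tested on simulated data. LKB1 siRNA was compared with control siRNA by line and on average, the effect was compared between lines by an F test, and control groups were compared in pairs. Members and gene lists were chosen with earlier results of these data known. Named genes were the members, STK11, CDKN1A, up to 3 genes of smallest p on average in a list, and the 3 genes most like a member by Pearson r among those with a mean signal of at least 20. Alternatives were other pseudocounts, filters, scaling and thresholds, no trend, a replicate block, single lines, and leaving out each library or line. Gene coordinates, transcripts and UTRs are those of GENCODE v29, and gene order and promoters those of RefSeq. Protein sequences were not used here.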

Additional observations from a re-analysis of the deposited data

Results flagged for a closer look

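The effect of LKB1 siRNA differed between the 3 lines by limma's F test for 2 of the 7 genes, where 28.2% of all genes passed, so the count is near that of all genes. For CDKN2C the adjusted p was 1.2e-04. The log2 fold change was -1.14 in RBE, -0.21 in SSP-25 and -0.31 in HuH-28, and the median of 20 S-phase genes was also lowest in RBE, at -0.47 against -0.17 and -0.19. Its part in the result was not tested.

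For CDKN2A the adjusted p was 0.032, with log2 fold changes of -1.26 in RBE, 0.01 in SSP-25 and 0.18 in HuH-28. In RBE the signal was at most 1.53. The call was lost without either HuH-28 control library, HuH-28 LKB1 siRNA replicate 2, RBE control replicate 2 or any SSP-25 library (adjusted p of 0.052 to 0.12). It was also lost with 0.1 or 10 added to the signal, with no filter and with no trend (0.051 to 0.091).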

How the results depend on the processing

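With an absolute log2 fold change above 1 required as well, the members that passed with LKB1 siRNA numbered 2 in RBE and 0 in HuH-28, in SSP-25 and on average. The 2 were CDKN2C and CDKN2A, the latter near 0 in RBE. With each line fitted alone, 4 passed in SSP-25, with CDKN1B (adjusted p = 0.025) and CDKN2D (0.038) added, where 8164 of 14509 genes passed. In the same fits 2 passed in HuH-28 (2407 of 14503 genes), with CDKN1B lost (0.11), and 4 in RBE (8040 of 14484). All 4 members tested in RBE alone passed. CDKN2A, CDKN2B and CDKN1C did not meet the filter in RBE alone and were not tested, so the RBE call of CDKN2A had no counterpart. Between lines, 1 passed with 0.1 added to the signal, with no filter or with no trend. Leaving out single libraries, which leaves 1 library in a group, moved the counts of members passed in each line, on average and between lines. Changes of sign were seen only in values that had not passed. For CDKN2A the average became 0.020 with 10 added and 0.10 without the RBE line, and for CDKN2B 0.040 and 0.082. After quantile normalization the difference of RBE from SSP-25 became 0.10 for CDKN1B and 0.11 for CDKN2C. Without single libraries the log2 fold change ran from -0.49 to 0.050 (HuH-28), -0.64 to 0.057 (RBE) and -0.32 to 0.10 (SSP-25) for CDKN1C, from -1.08 to 0.30 (RBE), -0.0099 to 0.082 (SSP-25) and -0.31 to 0.15 (average) for CDKN2B, and from -0.018 to 0.047 for CDKN2A in SSP-25. The control difference ran from -0.32 to 0.042 for CDKN2D in HuH-28 against SSP-25 and from -0.073 to 0.028 for CDKN2C in RBE against SSP-25. The causes were not tested.

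The replicate numbers were not shown to pair the samples, although the study calls them a first and a second test. Deviations of same-numbered libraries from their group means had r over 0.1 in 1 of 15 pairs of groups (range -0.05 to 0.43), that of both siRNAs in HuH-28. The number of genes at 0 also went with the replicate number in HuH-28 and RBE. In HuH-28 it was 1063 in both libraries numbered 1, and 2985 and 3020 in those numbered 2. In RBE it was 3409 and 3291 in those numbered 1, and 1063 in both numbered 2. In SSP-25 it was 3047 in LKB1 siRNA replicate 2 and 1063 in the others. The cause was not tested. In HuH-28, CDKN1B went from 1277 to 975 in libraries numbered 1 and from 1456 to 1177 in those numbered 2. CDKN2D went from 100.4 to 81.6 and from 130 to 100.02. The main fit holds no pairing. A block for the replicate number was a single term shared by all lines, so it could not fit a pairing in HuH-28 alone. With this block, 5 members passed in RBE, 3 in HuH-28, 2 in SSP-25, 5 on average and 3 between lines. The added ones were CDKN2A on average (adjusted p = 0.046) and CDKN3 between lines (0.043), and the HuH-28 against RBE difference of CDKN2D was lost (0.059). CDKN2A also passed on average after quantile normalization (0.049), without RBE control replicate 1 (0.046), without RBE LKB1 siRNA replicate 2 (0.0012) and without the HuH-28 line (0.042).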
